A study of Mus musculus with 12 samples.

Results

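The genes described here encode the translation initiation factors of mouse. They were chosen by name, as every gene whose symbol begins with Eif and a digit from 1 to 6, without the kinases of eIF2 and without pseudogenes. Of 12484 genes listed in any of the 3 expression tables, 58 met this rule. The table of CTR9 depletion held 58 of them among 11982 genes, that of CDC73 depletion 54 among 12128, and that of MYC depletion 56 among 12100, and 53 genes were in all 3. No fold change entered the choice, so the comparisons below could be tested for the genes they list. The authors had dropped genes under 5 reads.

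The RNA came from KPC cells, a line grown from a mouse pancreatic ductal adenocarcinoma (PDAC). The cells carried a doxycycline-inducible short hairpin RNA against luciferase (shLuciferase, the control), against CTR9 or CDC73, both subunits of the RNA polymerase II-associated PAF1 complex (PAF1c), or against MYC. All 4 groups, the control included, received doxycycline at 1 µg/ml for 48 h, and each was sequenced as 3 libraries of poly(A) RNA. The hairpins against CTR9 and CDC73 had been brought in by lentivirus with drug selection. For the cells with the hairpin against MYC the study refers to earlier work, and it calls its MYC depletion results previous ones. Whether the 4 groups were grown and sequenced together is not stated. Every library came from the same tumor line, and the labels number the libraries of a group without saying whether they came from separate cultures. The study's reporting form calls its RNA sequencing replicates biological.

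Translation initiation loads the small ribosomal subunit with the initiator tRNA, brings it to the capped end of an mRNA, lets it scan to the start codon and joins the large subunit there. eIF2 carries the tRNA and is recharged with GTP by eIF2B, eIF1, eIF1A, eIF3 and eIF5 organize the scanning subunit, and eIF4F, made of the cap-binding protein eIF4E, the helicase eIF4A and the scaffold eIF4G, recruits the mRNA. Ribosome production and protein synthesis are well-known outputs of MYC, which as a dimer with MAX binds the E-box CACGTG, whereas PAF1c travels with RNA polymerase II and aids its passage through gene bodies.

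Promoter windows of initiation factor genes were searched for that E-box, spelled CACGTG, which reads the same on both strands. RefSeq windows of build GRCm38.p6, from 250 bases before to 50 bases after an annotated start, could be matched by gene ID for 42 of the 58 genes. The hexamer stood in a window of 10 of these 42 genes (23.8%), against 1121 of 9441 genes of the tables with a window (11.9%) and 2187 of 27025 genes of the whole set (8.09%). The 10 genes were Eif1b, Eif3a, Eif3f, Eif3k, Eif4a1, Eif4e, Eif4g1, Eif4h, Eif5a and Eif5a2. Windows of 4 of them are shown, 3 from genes of the cap-binding machinery whose mRNAs fell after MYC depletion and 1, Eif3k, whose mRNA did not pass that test, with CACGTG in capitals. A match describes the letters only and is not a measured binding site.
Eif4e, chr3:138527018-138527317, plus strand: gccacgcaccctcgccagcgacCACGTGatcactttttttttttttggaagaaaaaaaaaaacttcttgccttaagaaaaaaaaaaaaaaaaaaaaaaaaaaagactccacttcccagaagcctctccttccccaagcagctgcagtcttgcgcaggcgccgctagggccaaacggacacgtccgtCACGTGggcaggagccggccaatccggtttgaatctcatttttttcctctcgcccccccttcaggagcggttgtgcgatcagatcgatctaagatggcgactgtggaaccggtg
Eif4a1, chr11:69672374-69672673, minus strand: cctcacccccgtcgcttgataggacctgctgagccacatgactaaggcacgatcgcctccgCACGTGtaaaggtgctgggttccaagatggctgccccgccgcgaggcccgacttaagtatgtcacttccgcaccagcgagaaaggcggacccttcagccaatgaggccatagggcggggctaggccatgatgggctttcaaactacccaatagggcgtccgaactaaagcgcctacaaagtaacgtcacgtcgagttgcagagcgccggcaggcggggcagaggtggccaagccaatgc
Eif4h, chr5:134639360-134639659, minus strand: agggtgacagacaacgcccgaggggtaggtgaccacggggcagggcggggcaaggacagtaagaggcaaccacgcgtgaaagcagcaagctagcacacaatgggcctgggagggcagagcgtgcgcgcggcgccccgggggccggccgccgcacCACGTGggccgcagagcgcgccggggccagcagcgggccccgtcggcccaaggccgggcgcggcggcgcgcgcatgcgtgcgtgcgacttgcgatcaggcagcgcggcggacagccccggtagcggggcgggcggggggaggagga
Eif3k, chr7:28981839-28982138, minus strand: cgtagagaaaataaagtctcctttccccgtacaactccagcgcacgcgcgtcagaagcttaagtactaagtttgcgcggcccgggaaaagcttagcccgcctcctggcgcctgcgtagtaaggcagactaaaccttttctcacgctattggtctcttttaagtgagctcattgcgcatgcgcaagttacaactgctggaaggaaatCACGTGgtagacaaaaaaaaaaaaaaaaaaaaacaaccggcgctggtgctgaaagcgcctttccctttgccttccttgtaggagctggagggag
Counted from the annotated start of the window shown, the first base of the hexamer lay at −228 and −64 in Eif4e, at −189 in Eif4a1, at −96 in Eif4h and at −44 in Eif3k. Eif4e has another annotated start upstream, whose window (chr3:138525941-138526240) holds no CACGTG.

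The labels of the groups were checked first on the genes that the hairpins target. Ctr9 fell from 30.2 to 2.83 CPM (reads of a gene scaled to the size of its library) in shCTR9 cells, Cdc73 from 40.7 to 3.19 CPM in shCDC73 cells and Myc from 178 to 57.4 CPM in shMYC cells. In the shMYC table Ctr9 (log2 fold change −0.90) and Cdc73 (−0.54) were lower too, while Myc did not pass the test after CTR9 depletion (−0.13) or CDC73 depletion (0.28). Ctr9 rose from 29.2 to 54.1 CPM in shCDC73 cells (0.89), whereas Cdc73 did not pass the test in shCTR9 cells (0.07). Of 6 epithelial markers 5 were measured, with a summed control level of 6437 CPM, no marker of leukocytes, endothelium or islets was listed, and the single listed marker of fibroblasts reached at most 1.78 CPM and that of acinar cells, Cela1, at most 3.97 CPM in the control. Cela1 rose to 10.3 CPM in shCDC73 cells (1.57) and also rose in shMYC cells (0.59), with 0.00 for CTR9. The epithelial markers moved as well, with 4 of 5 higher after CTR9 depletion and 2 higher and 2 lower in each of the others, among them Sox9 (1.92, 2.58 and −2.54 for CTR9, CDC73 and MYC). The part of these markers in the changes of the initiation factors was not tested. All 13 mitochondrially encoded mRNAs were higher in shCTR9 cells (median log2 fold change 0.97) and in shCDC73 cells (1.10), against 1 higher and 6 lower after MYC depletion (−0.18). Their share of the RNA pool moved with both PAF1c depletions, and its part in the changes of the initiation factors was not tested. The tables give no value per library and no library total, so every level below is that of a group of 3 libraries, computed from the deposited mean level and fold change.

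Expression of the initiation factors covered a wide range in control cells, from 0.549 to 2035 CPM. Of the 58 mRNAs, 48 had a control level of at least 10 CPM, with a median of 184 CPM. Per kilobase of exon, which is the scale for comparing genes, the elongation and termination factor gene Eif5a was highest at 856 CPM per kb, ahead of Eif4a1 at 225, Eif3h at 216, Eif3b at 185 and Eif1 at 183 CPM per kb. The other end of these 48 was formed by Eif4g3 at 1.98 and Eif2b3, the gene of the gamma subunit of eIF2B, at 2.99 CPM per kb. Another 8 mRNAs lay under 3 CPM, all of them named as relatives of Eif1ad. The tables were normalized separately, and over all genes the control level in the shMYC table was 0.14 higher on the log2 scale than in the shCTR9 table. Once this shift was removed, the control level of no initiation factor of 10 CPM or more differed between tables by over 0.05 on the log2 scale.

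Depletion of MYC lowered most initiation factor mRNAs, whereas depletion of either PAF1c subunit lowered few and raised shares near those of all genes. After MYC depletion 36 of 56 mRNAs (64.3%) fell and 4 rose (7.14%), against 33.8% and 33.2% of all genes tested. CTR9 depletion lowered 10 of 58 (17.2%) and raised 18 (31.0%), with 31.2% and 31.3% of all genes. CDC73 depletion lowered 8 of 54 (14.8%) and raised 19 (35.2%), with 31.4% and 29.4% of all genes. The median log2 fold change of the initiation factors was −0.43 for MYC, 0.02 for CTR9 and 0.11 for CDC73, beside −0.00, −0.01 and −0.02 over all genes. Called here means an adjusted p below 0.05 in the authors' edgeR likelihood ratio test as deposited, adjusted over the whole table. Since initiation factors are abundant, the same was counted among genes of at least 10 CPM, where 34 of 48 initiation factors fell after MYC depletion beside 37.5% of all such genes. With the likelihood ratio read instead against an F distribution with 1 and 4 degrees of freedom, which allows for the small number of libraries and is called the F reading below, MYC depletion lowered 28 of the 56 and 25.5% of all genes.

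**Figure D1:**
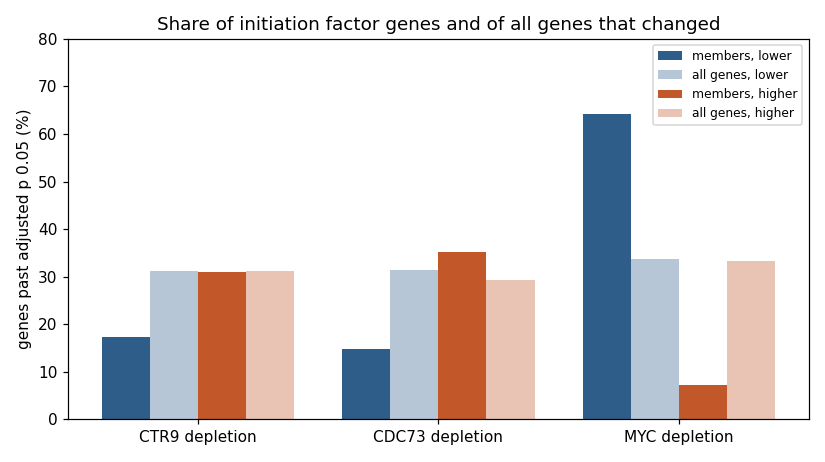
Bars give the percent of initiation factor genes (dark) and of all genes tested (light) that passed adjusted p 0.05 as lower (blue) or higher (orange) in each depletion against shLuciferase, from 3 libraries a group. The initiation factors stand at 64.3% lower after MYC depletion, against 17.2% and 14.8% after CTR9 and CDC73 depletion.

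**Figure D2:**
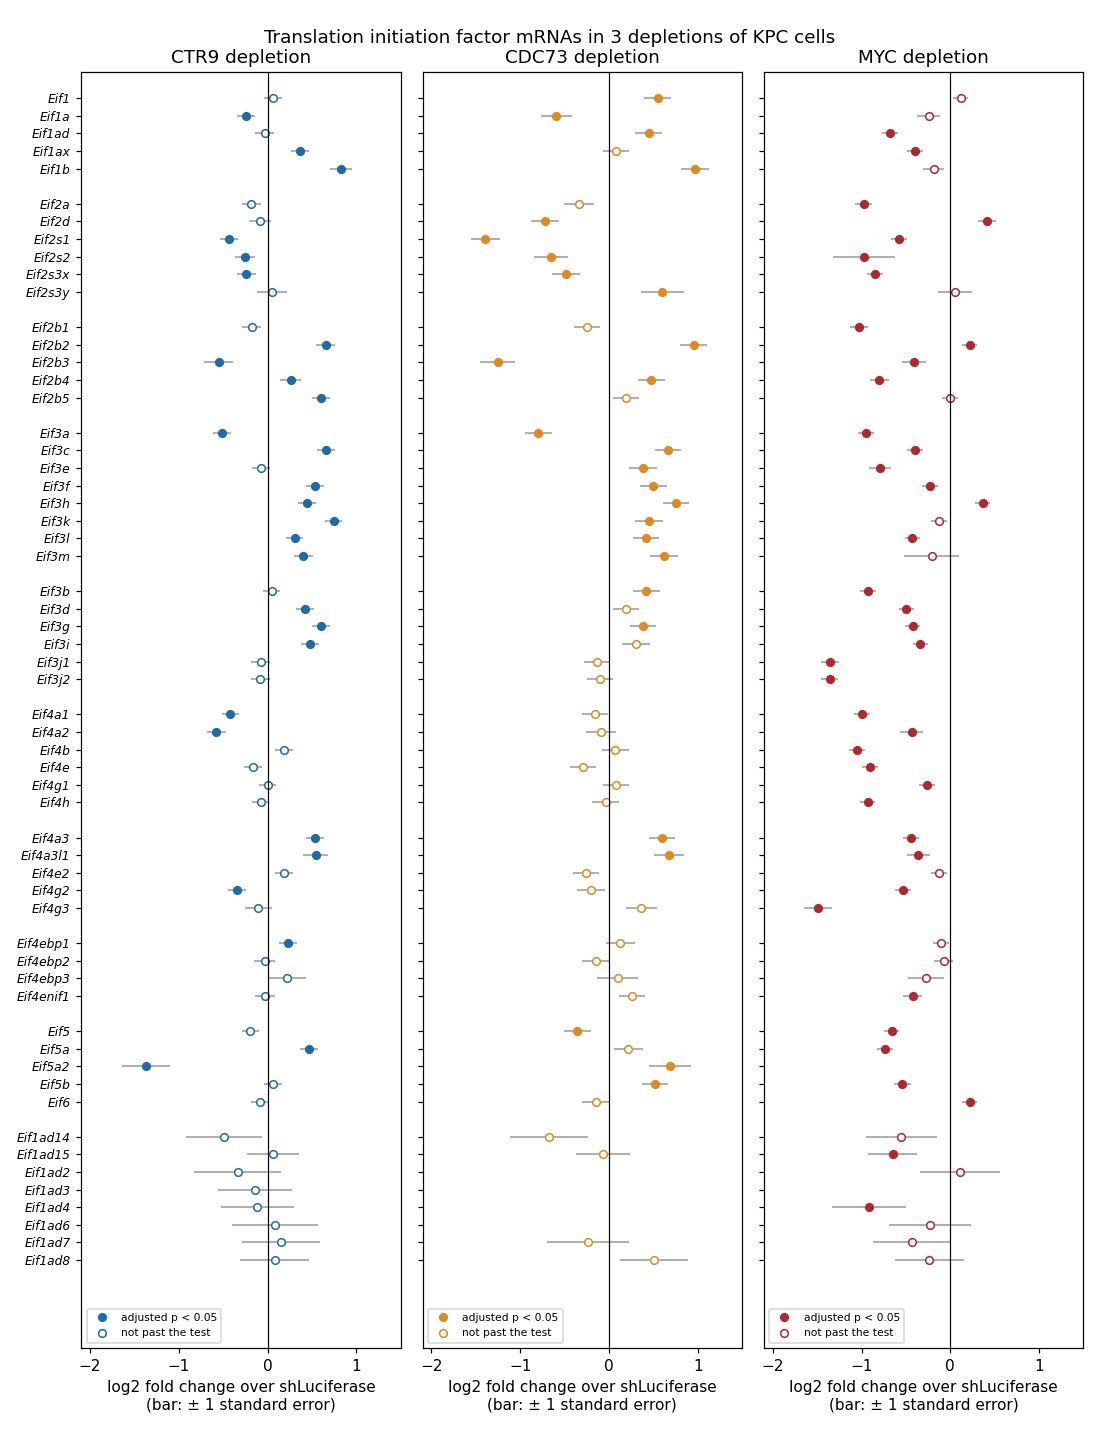
Points give the log2 fold change over shLuciferase of each of the 58 initiation factor mRNAs, with a bar of 1 approximate standard error, in blocks by complex from eIF1 and eIF1A at the top to the Eif1ad relatives at the bottom. Filled points passed adjusted p 0.05. In the MYC panel most points lie left of 0, while in the PAF1c panels the eIF3 blocks lie mostly to the right.

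The genes of cap recognition and unwinding fell together after MYC depletion. All 6 genes of eIF4F and its helicase partners fell after MYC depletion, with a median log2 fold change of −0.92. None of the 6 passed the test after CDC73 depletion, and 2 of them, both helicases, fell after CTR9 depletion. At an unadjusted p under 0.05 the count for CDC73 was 1, that of Eif4e, and in the F reading 4 of the 6 falls after MYC depletion held, without those of Eif4a2 and Eif4g1. The adjusted p-values of this and the following paragraphs are those of the authors' edgeR test. Counts by complex are to be set beside all genes, with 33.8% lower and 33.2% higher for MYC depletion. These shares were 31.2% and 31.3% for CTR9, and 31.4% and 29.4% for CDC73. In the F reading they were 25.5% and 24.9%, 18.5% and 20.2%, and 18.5% and 16.8%, in the same order.

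Eif4a1, the main eIF4A helicase, fell from 1078 to 540.1 CPM after MYC depletion (−0.998, SE 0.09, adjusted p = 3.2e-29). In shCTR9 cells it went from 976 to 729.8 CPM (−0.42, SE 0.10, adjusted p = 6.6e-05), and in shCDC73 cells from 973 to 872 CPM without passing the test (−0.16, SE 0.15). Some of its sequence is shared with other genes, since 72.8% of the 60-base stretches of its transcripts occurred in no other gene. Its paralog Eif4a2 fell after CTR9 depletion from 111 to 74.5 CPM (−0.58, SE 0.11, adjusted p = 4.0e-07) and after MYC depletion (−0.44), with −0.09 after CDC73 depletion. So Eif4a2 was the one gene of the 6 with a lower estimate after CTR9 than after MYC depletion, though that difference did not pass the test (−0.14, approximate 95% interval −0.48 to 0.20).

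Eif4e, which binds the cap, fell from 207 to 110.5 CPM after MYC depletion (−0.90, SE 0.09, adjusted p = 2.1e-21). It did not pass the test after CTR9 depletion (187 to 167 CPM, −0.17, SE 0.10, adjusted p = 0.15) or CDC73 depletion (186 to 152 CPM, −0.29, SE 0.15, adjusted p = 0.069). The scaffold gene Eif4g1 changed least of the complex, falling by 0.26 after MYC depletion (775 to 646 CPM, SE 0.09, adjusted p = 0.0071) and measuring −0.00 and 0.08 after CTR9 and CDC73 depletion. Among the partners that stimulate the helicase, Eif4b fell from 792 to 382 CPM (−1.05) and Eif4h from 939 to 492 CPM (−0.93) in shMYC cells. Neither passed the test in the PAF1c depletions, where Eif4b measured 0.18 and 0.07 and Eif4h −0.08 and −0.04 for CTR9 and CDC73.

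Genes related to the eIF4F subunits divided further. Of the initiation factors listed for MYC depletion, Eif4g3, a scaffold paralog, had the largest fall. It went from 24.1 to 8.58 CPM (−1.49, SE 0.16, adjusted p = 5.8e-20), which left 35.5% of the control level. It measured −0.11 after CTR9 depletion and 0.37 after CDC73 depletion (21.7 to 27.9 CPM, adjusted p = 0.053), neither past the test. Eif4g2, a relative of eIF4G that lacks the eIF4E-binding part, fell after CTR9 (−0.35) and MYC depletion (−0.54) and measured −0.20 after CDC73 depletion. Eif4e2, a second cap-binding protein, passed the test in none of the 3 (0.18 for CTR9, −0.26 for CDC73, −0.13 for MYC). Eif4a3, a helicase of the exon junction complex rather than of cap-dependent initiation, rose after CTR9 (0.53) and CDC73 depletion (0.60) but fell in shMYC cells (−0.44). The values of Eif4a3l1 (0.54, 0.68 and −0.36, all called) are not independent of it, as 58.0% of its stretches were unique.

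The repressors of eIF4E moved little. Of Eif4ebp1, Eif4ebp2, Eif4ebp3 and Eif4enif1, which bind eIF4E in competition with eIF4G or shuttle it to the nucleus, 1 rose after CTR9 depletion, none was called after CDC73 depletion, also at an unadjusted p under 0.05, and 1 fell after MYC depletion. These were Eif4ebp1 for CTR9 (194 to 228 CPM, 0.23) and the shuttle gene Eif4enif1 for MYC (75.5 to 56.2 CPM, −0.43). The other values of Eif4ebp1 were 0.13 for CDC73 and −0.10 for MYC, and those of Eif4enif1 −0.03 for CTR9 and 0.26 for CDC73. Eif4ebp2 measured −0.04, −0.14 and −0.08, and the low Eif4ebp3 (6.49 CPM in control cells) 0.22, 0.10 and −0.28, for CTR9, CDC73 and MYC. Of the stretches of Eif4ebp3, 35.0% were unique. After MYC depletion the mRNA of the cap-binding subunit was at 53.5% of its control level, and that of Eif4ebp1, at 93.0%, did not pass the test. These values do not give protein levels.

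**Figure D3:**
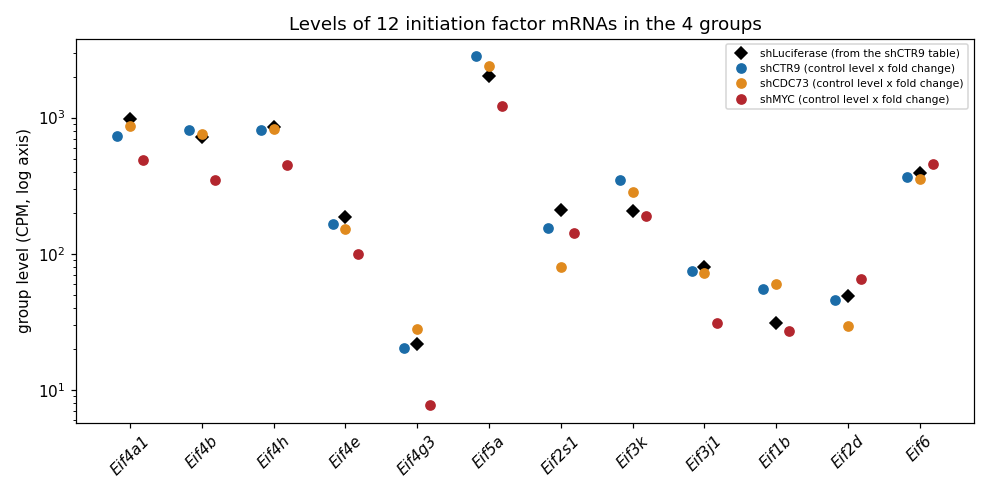
Group levels of 12 initiation factor mRNAs in CPM on a log axis, with the shLuciferase level of the shCTR9 table as a diamond and, for each depletion, that level multiplied by the deposited fold change as a circle. The shMYC circles of Eif4a1, Eif4b, Eif4h, Eif4e, Eif4g3 and Eif3j1 lie below the other circles of their gene, and the lowest circles of Eif2s1 and Eif2d are those of shCDC73.

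eIF3, the largest initiation complex, was split between the depletions. Of 14 measured subunit genes, 9 rose and 1 fell after CTR9 depletion (median 0.41), 9 rose and 1 fell after CDC73 depletion (median 0.40), and 1 rose and 11 fell after MYC depletion (median −0.43). Over all genes 31.3% rose and 31.2% fell for CTR9, 29.4% and 31.4% for CDC73, and 33.2% and 33.8% for MYC. The counts of subunits take the near copies Eif3j1 and Eif3j2 as separate genes. In the F reading 7, 3 and 1 rose and 1, 1 and 10 fell, so most of the rises after CDC73 depletion were lost. Over all genes 20.2%, 16.8% and 24.9% rose in that reading and 18.5%, 18.5% and 25.5% fell. The subunit gene that fell after both PAF1c depletions was Eif3a, which encodes the scaffold on which the complex assembles. It went from 420 to 294 CPM after CTR9 depletion (−0.51, SE 0.10, adjusted p = 9.0e-07), from 418 to 241 CPM after CDC73 depletion (−0.80, SE 0.15, adjusted p = 3.7e-07) and from 463 to 241 CPM after MYC depletion (−0.95). Eif3a was the one subunit gene that fell in all 3 comparisons.

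The subunits that form the structural core with eIF3a mostly rose after PAF1c depletion. Eif3k had the largest rise of the complex after CTR9 depletion, from 207 to 347 CPM (0.74, SE 0.10, adjusted p = 9.9e-13), and rose by 0.45 after CDC73 depletion. Its value after MYC depletion was −0.13, not called. Eif3h was the subunit that rose in all 3 comparisons, from 347 to 472 CPM for CTR9 (0.44), from 346 to 583 CPM for CDC73 (0.75, SE 0.15, adjusted p = 1.7e-06) and from 384 to 494 CPM for MYC (0.36, SE 0.09, adjusted p = 5.3e-05). Eif3c, the second large core subunit, rose from 294 to 464 CPM after CTR9 depletion (0.66, SE 0.10, adjusted p = 2.6e-10) and by 0.67 when CDC73 was depleted, and fell in shMYC cells (−0.40). Eif3f (0.54, 0.50 and −0.23) and Eif3l (0.30, 0.42 and −0.43) followed the same pattern, given in the order CTR9, CDC73 and MYC, with all values called. Eif3m rose after CTR9 (0.40) and CDC73 depletion (0.62), and Eif3e measured −0.08 after CTR9 depletion, rose by 0.38 after CDC73 depletion but fell in shMYC cells (−0.79). For Eif3m the value after MYC depletion (−0.21) had a standard error of 0.31 and was not called.

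The peripheral subunits, which contact the mRNA and the scanning ribosome, all fell after MYC depletion. Eif3b fell from 682 to 358 CPM (−0.93), against 0.04 after CTR9 depletion and a rise of 0.42 after CDC73 depletion. Eif3g (0.60, 0.38 and −0.43 for CTR9, CDC73 and MYC) passed the test in each comparison, and Eif3d (0.42, 0.19 and −0.49) and Eif3i (0.47, 0.30 and −0.34) in all but that of CDC73. Eif3j1 and Eif3j2 encode the loosely bound eIF3j. Among the genes listed for MYC depletion they had the next largest falls after that of Eif4g3. They went from 87.7 to 34.3 CPM (−1.35, SE 0.10, adjusted p = 2.0e-38) and from 106 to 41.2 CPM (−1.36, SE 0.10, adjusted p = 3.4e-43). Their values after CTR9 depletion (−0.08 for both) and CDC73 depletion (−0.14 and −0.10) were not called. These genes are near copies, with 63.9% and 9.91% of their stretches unique, so their reads can be split between them and they count as 1 observation rather than as a pair.

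Of the 6 genes grouped with the tRNA carrier eIF2, 3 fell after CTR9 depletion, 4 fell and 1 rose after CDC73 depletion, and 4 fell and 1 rose after MYC depletion. In the F reading the counts were 1 lower for CTR9, 2 lower for CDC73, and 3 lower and 1 higher for MYC. Eif2s1 encodes the alpha subunit that stress kinases phosphorylate. It had the largest fall of any initiation factor listed for CDC73 depletion, from 212 to 80.7 CPM (−1.39, SE 0.17, adjusted p = 1.5e-15). It also fell from 211 to 156 CPM after CTR9 depletion (−0.44, SE 0.10, adjusted p = 5.4e-05) and from 233 to 156 CPM after MYC depletion (−0.58, SE 0.09, adjusted p = 9.9e-11). The beta subunit gene Eif2s2 (−0.25, −0.65 and −0.98) and the X-linked gamma subunit gene Eif2s3x (−0.24, −0.49 and −0.85) fell after CTR9, CDC73 and MYC depletion. For Eif2s2 the standard error after MYC depletion was 0.35, which with that of Eif3m was more than 2 times the median of genes of at least 10 CPM, as for 1.05% of these genes. The Y-linked gamma gene Eif2s3y, at 15.8 CPM, measured 0.05 after CTR9 depletion, rose after CDC73 depletion (0.60, adjusted p = 0.023) and measured 0.05 after MYC depletion. Of the stretches of Eif2s3x, 65.6% were unique. In the F reading Eif2s1 remained called in all 3 comparisons, whereas Eif2s2 was called in none and Eif2s3x after MYC depletion only.

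Proteins that can deliver initiator tRNA outside the eIF2 cycle went separate ways. Eif2a, a protein distinct from the alpha subunit of eIF2, fell after MYC depletion from 114 to 57.7 CPM (−0.98) and measured −0.18 and −0.34, not called, after CTR9 and CDC73 depletion. Eif2d, which acts in recycling and reinitiation, was one of the 4 mRNAs that rose in shMYC cells, from 54.2 to 71.9 CPM (0.41, SE 0.10, adjusted p = 0.00014). It fell after CDC73 depletion from 48.9 to 29.7 CPM (−0.72, SE 0.16, adjusted p = 1.6e-05) and measured −0.08 after CTR9 depletion.

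eIF2B, the exchange factor that reloads eIF2, was divided within itself. Eif2b2, the beta subunit gene, rose from 107 to 168 CPM after CTR9 depletion (0.65, SE 0.10, adjusted p = 2.1e-09), from 106 to 206 CPM after CDC73 depletion (0.95, SE 0.15, adjusted p = 2.4e-09) and from 118 to 137 CPM after MYC depletion (0.22, SE 0.09, adjusted p = 0.020). Eif2b3 moved the other way in each, from 19.5 to 13.3 CPM (−0.55, SE 0.16, adjusted p = 0.0017), from 19.4 to 8.13 CPM (−1.25, SE 0.20, adjusted p = 1.4e-09) and from 21.3 to 16.0 CPM (−0.41, SE 0.13, adjusted p = 0.0043). One subunit gene thus rose and another fell whichever protein was depleted, although the calls of Eif2b3 for CTR9 and MYC and of Eif2b2 for MYC were lost in the F reading. The delta subunit gene Eif2b4 rose after CTR9 (0.26) and CDC73 depletion (0.48) but fell in shMYC cells (−0.80). Eif2b5, of the catalytic epsilon subunit, rose after CTR9 depletion (146 to 222 CPM, 0.60) and measured 0.19 and −0.00 in the others, and Eif2b1, of the alpha subunit, fell after MYC depletion alone among the 3 tests (95.2 to 46.6 CPM, −1.03), with −0.18 and −0.25 for CTR9 and CDC73.

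Among the genes of start codon choice, Eif1b had the largest rise and the others differed in direction. Eif1b, a close relative of Eif1, rose from 31.0 to 54.9 CPM after CTR9 depletion (0.83, SE 0.13, adjusted p = 3.9e-10) and from 30.9 to 60.4 CPM after CDC73 depletion (0.97, SE 0.15, adjusted p = 2.1e-09), the largest rise in each table among these genes. In shMYC cells it measured −0.19 and was not called. Eif1, which guards against initiation at the wrong codon and stood at 183 CPM per kb in control cells against 27.5 for Eif1b, measured 0.06 after CTR9 depletion, rose after CDC73 depletion (383 to 560.3 CPM, 0.55) and measured 0.12 after MYC depletion. The gene of its partner eIF1A on the X chromosome, Eif1ax, rose after CTR9 depletion (0.37), measured 0.08 after CDC73 depletion and was lower in shMYC cells (−0.40), whereas its autosomal counterpart Eif1a fell after CTR9 (−0.25) and CDC73 depletion (−0.59) and measured −0.24 after MYC depletion. Eif1ad, which shares the eIF1A domain, measured −0.03 after CTR9 depletion, rose after CDC73 depletion (0.45) but fell in shMYC cells (−0.68). In the F reading only the rise of Eif1b held in the PAF1c depletions, while the falls of Eif1ax and Eif1ad in shMYC cells held.

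The 8 relatives numbered from Eif1ad2 upward were all at or under 2.92 CPM in control cells, in every table that lists them, and they are uncertain. The share of unique stretches was 4.52% for Eif1ad2, 21.7% for Eif1ad3, 8.78% for Eif1ad4, 6.20% for Eif1ad6, 27.1% for Eif1ad7 and 78.8% for Eif1ad8. For Eif1ad14 and Eif1ad15 no reference transcript was matched, so their share is unknown. None of the relatives was called after CTR9 or CDC73 depletion, also at an unadjusted p under 0.05, and 2 of 7 fell after MYC depletion, Eif1ad15 (−0.65, adjusted p = 0.028) and Eif1ad4 (−0.92, adjusted p = 0.042). The log2 fold changes after CTR9 and MYC depletion were −0.34 and 0.11 for Eif1ad2, 0.09 and −0.23 for Eif1ad6, 0.15 and −0.43 for Eif1ad7 and 0.08 and −0.24 for Eif1ad8. Eif1ad14 measured −0.49 and −0.55, and Eif1ad4 and Eif1ad15 measured −0.12 and 0.06 after CTR9 depletion. After CDC73 depletion Eif1ad7 measured −0.24, Eif1ad8 0.51, Eif1ad14 −0.68 and Eif1ad15 −0.07, and Eif1ad3 was listed only for CTR9 (−0.14). Their standard errors, from 0.27 to 0.49, were several times those of the abundant initiation factors.

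The factors of subunit joining fell after MYC depletion with an exception. Eif5, whose product triggers GTP hydrolysis by eIF2, fell from 400.4 to 253 CPM (−0.66) after MYC depletion and by 0.36 after CDC73 depletion, and measured −0.19 after CTR9 depletion. Eif5b, the GTPase that joins the large subunit, fell after MYC depletion (−0.54), rose after CDC73 depletion (158 to 227 CPM, 0.52) and measured 0.06 after CTR9 depletion. The calls of Eif5 and Eif5b after CDC73 depletion were lost in the F reading. Eif6, which keeps free large subunits from joining, was the exception. It rose from 428 to 498 CPM after MYC depletion (0.22, SE 0.08, adjusted p = 0.018, lost in the F reading), and measured −0.09 (390 to 367 CPM, SE 0.10) and −0.15 (387 to 349 CPM, SE 0.15) after CTR9 and CDC73 depletion, neither called.

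Eif5a, the hypusinated protein that eases peptide bond formation, was the most abundant of these mRNAs. It fell from 2245 to 1344 CPM after MYC depletion (−0.74, SE 0.09, adjusted p = 1.2e-15), rose from 2035 to 2815 CPM after CTR9 depletion (0.47, SE 0.10, adjusted p = 1.2e-05) and measured 0.22 after CDC73 depletion (2026 to 2359 CPM, SE 0.16, adjusted p = 0.23). Its low paralog Eif5a2 was the one initiation factor that changed in opposite directions in the PAF1c depletions, from 5.77 to 2.23 CPM after CTR9 depletion (−1.37, SE 0.27, adjusted p = 1.2e-06) and from 5.56 to 8.96 CPM after CDC73 depletion (0.69, SE 0.23, adjusted p = 0.0065, lost in the F reading). It was not listed for MYC depletion. Its change there is unknown, and since the authors dropped genes under 5 reads a large fall could be hidden.

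The depletions were then compared with each other by testing the difference of their fold changes. All 3 comparisons share the shLuciferase libraries, and the difference was tested with an approximate z test that treats the standard errors as independent, adjusted over all genes in both tables. Initiation factor mRNAs were above their level in MYC depletion for 34 of 56 genes when CTR9 was depleted and below it for 2, with 30.8% and 27.9% of all genes, and the median difference was 0.61 beside 0.03 over all genes. With CDC73 depleted, 31 of 53 genes lay above the value of MYC depletion and 3 below, with 29.3% and 30.5% of all genes, and the median difference was 0.64 beside −0.02.

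The largest differences from MYC depletion were taken among genes listed for both depletions, and Eif4g3 led in each comparison. For CTR9 minus MYC depletion they were those of Eif4g3 (1.39, SE 0.22, adjusted p = 1.7e-09 in the approximate z test), Eif3j2 (1.28, SE 0.14, adjusted p = 1.8e-17) and Eif3j1 (1.27, SE 0.15, adjusted p = 3.1e-16). For CDC73 minus MYC depletion they were those of Eif4g3 (1.86, SE 0.23, adjusted p = 2.3e-14), Eif3b (1.35, SE 0.17, adjusted p = 1.2e-13) and Eif2b4 (1.28, SE 0.19, adjusted p = 4.0e-11). By complex, 12 of 14 eIF3 genes exceeded their value in MYC depletion when CTR9 was depleted and 13 of 14 when CDC73 was, with median differences of 0.84 and 0.82. Over all genes 30.8% and 29.3% did so. The near copies Eif3j1 and Eif3j2 are again counted as separate genes. Among the 6 genes of eIF4F and its partners, 4 were higher in each comparison, namely Eif4a1, Eif4b, Eif4e and Eif4h. The mRNAs that were lower than after MYC depletion were Eif2d (−0.49) and Eif6 (−0.30) for CTR9, and Eif2d (−1.13), Eif2b3 (−0.85) and Eif2s1 (−0.81) for CDC73.

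**Figure D4:**
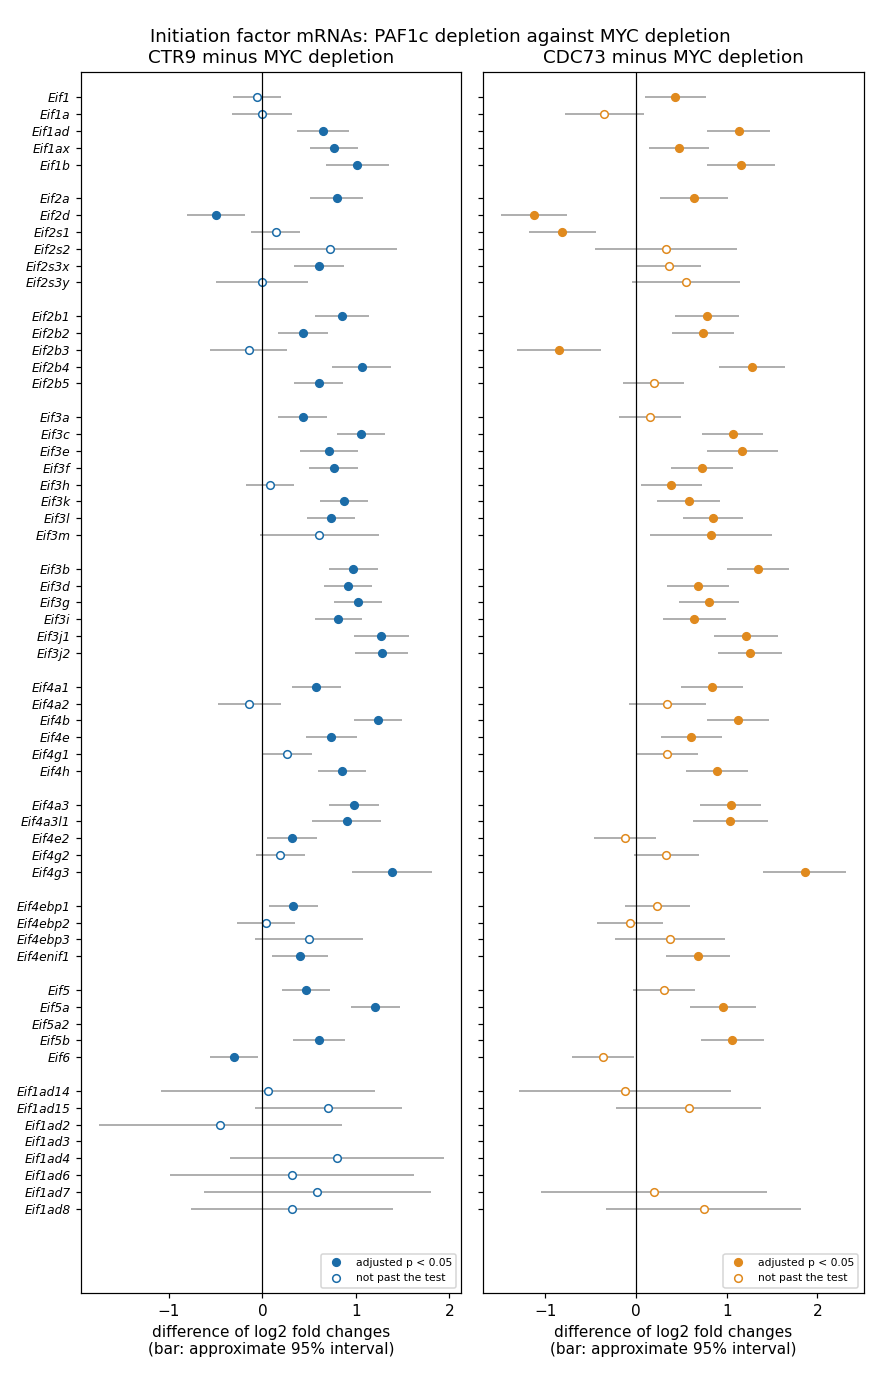
Points give, for each initiation factor mRNA, the log2 fold change after CTR9 (left) or CDC73 depletion (right) minus that after MYC depletion, with an approximate 95% interval, in the same blocks by complex. Filled points passed adjusted p 0.05, and they lie right of 0 apart from Eif2d and Eif6 on the left and Eif2d, Eif2b3 and Eif2s1 on the right.

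Depletion of CTR9 and of CDC73 differed for few initiation factors. Of 54 genes, 6 were lower and 4 higher after CTR9 than after CDC73 depletion, with 15.1% and 19.4% of all genes, and the median difference was 0.06. Eif5a2 had the largest difference (−2.06, SE 0.36, adjusted p = 1.3e-07), followed by Eif2s1 (0.95, SE 0.20, adjusted p = 1.4e-05) and Eif2b3 (0.70, SE 0.26, adjusted p = 0.022) in the other direction. The remaining called differences were Eif1 (−0.49), Eif4a2 (−0.49), Eif1ad (−0.48), Eif5b (−0.46) and Eif3e (−0.46), and Eif2d (0.63) and Eif4e2 (0.44). Under a t distribution with 4 degrees of freedom no gene of the whole table was called in this comparison, with 3274 of 11806 genes, 3 of them initiation factors, at an unadjusted p under 0.05. The 44 genes without a call are not shown to respond alike, as for Eif4a1 the approximate 95% interval of the difference ran from −0.61 to 0.09.

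Gene length was set beside these changes because PAF1c acts along gene bodies. Initiation factor genes are short, with a median span of 12.2 kb in RefSeq against 20.9 kb for all genes of the shCTR9 table. After CTR9 depletion the 39 shorter ones, below the median of all genes, included 17 that rose and 5 that fell (median 0.09), and the 19 longer ones 1 that rose and 5 that fell (median −0.08). All genes had medians of 0.19 and −0.19 in these length classes, with 42.4% of the shorter ones higher and 21.9% lower, and 20.1% of the longer ones higher and 41.2% lower. After CDC73 depletion the 35 shorter ones included 14 that rose and 2 that fell (0.19), and the 19 longer ones 5 and 6 (−0.14). All genes had medians of 0.20 and −0.22 there, with 39.2% of the shorter ones higher and 23.5% lower. Of all longer genes 19.0% were higher and 40.3% lower. In both PAF1c depletions the shorter initiation factors thus rose about as often as all short genes and fell less often. Spearman's rho across initiation factor genes was −0.23 for CTR9 (58 genes), −0.22 for CDC73 (54 genes) and −0.12 for MYC (56 genes), against −0.32, −0.28 and −0.01 across all genes, as a description of genes that share libraries. After MYC depletion both classes were low, with 22 of 37 shorter and 14 of 19 longer genes lower and medians of −0.40 and −0.79, beside 33.5% and 34.1% of all genes and medians of 0.03 and −0.02.

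Some genes departed from the length order. Eif3h, which spans 78.9 kb, rose in every comparison, and the longest gene, Eif4g3 with 215 kb, was not called in either PAF1c depletion.

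**Figure D5:**
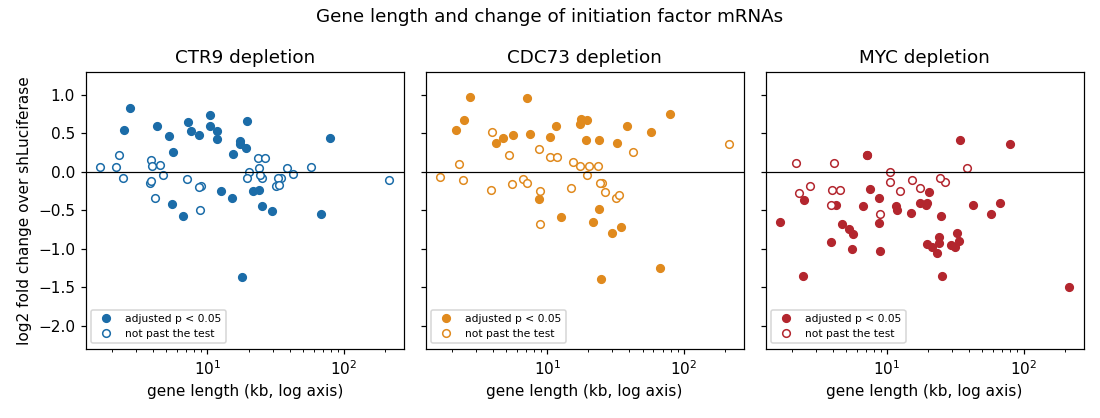
Each point is an initiation factor gene, with its RefSeq span in kb on a log axis and its log2 fold change over shLuciferase, and filled points passed adjusted p 0.05. In the CTR9 panel 17 of the 18 genes that rose are shorter than 20.9 kb, and in the MYC panel points below 0 occur at all lengths.

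Genes with the E-box in their promoter window were compared with those without it. Of 9 with CACGTG in the shMYC table, 7 fell and none rose, with a median log2 fold change of −0.74. Eif5a2, the other gene with a match, was not listed there. Of 32 with a window but no match, 22 fell and 2 rose, with a median of −0.43. Most genes of both sets thus fell, beside 33.8% lower and 33.2% higher over all genes tested. Eif3k and Eif1b were the genes with a match that did not pass the test. After CTR9 depletion the 10 genes with a match included 3 that fell and 4 that rose (median −0.04), with 31.2% and 31.3% of all genes. After CDC73 depletion they included 1 and 4 (0.15), with 31.4% and 29.4% of all genes. The difference between genes with and without a match was not tested, and shares over all genes with or without the hexamer were not computed. Large falls occurred in both sets. Without a match were Eif4g3 (−1.49), Eif3j1 (−1.35) and Eif4b (−1.05), and with a match Eif4a1 (−0.998), Eif3a (−0.95) and Eif4h (−0.93). The windows of Eif4g3 lie downstream of its RefSeq start (chr4:137991779), so that start was not searched.

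Factors outside the family were read from lists of related translation genes, to be set against the shares of all genes, 33.8% lower and 33.2% higher for MYC, 31.2% and 31.3% for CTR9, and 31.4% and 29.4% for CDC73. Of 6 elongation factor genes 5 fell after MYC depletion and none rose (median −0.89), none fell and 1 rose after CTR9 depletion, and 1 fell and 3 rose after CDC73 depletion. Eef1g, of the eEF1 exchange complex, fell from 1034 to 462 CPM in shMYC cells (−1.16), and so did Eef1b2 of the same complex (−1.07), which rose after CDC73 depletion (0.58) and measured 0.20 for CTR9. Of 8 termination, recycling and rescue genes 5 fell in shMYC, 4 in shCTR9 and 2 in shCDC73 cells, with 0, 1 and 2 higher. In this list Abce1, the ATPase that splits ribosomes, fell in all 3 (−0.56 for CTR9, −1.25 for CDC73, −1.34 for MYC). Among 6 genes of poly(A)-binding proteins and their partners 3 fell and 1 rose in shMYC cells, 2 and 1 in shCTR9 cells and 1 and 1 in shCDC73 cells, and Pabpc4 had the smallest adjusted p for MYC (−1.24). Pabpc1, the main cytoplasmic poly(A)-binding protein, named like Cdc123 below after its value was seen, fell after CTR9 (1821 to 1059 CPM, −0.78) and MYC depletion (2009.6 to 991 CPM, −1.02) and measured 0.05 after CDC73 depletion.

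Regulators of initiation showed large single changes. Of 9 accessory genes 6 fell and 1 rose after MYC depletion, and 2 fell and 4 rose after each PAF1c depletion. Mknk2, a kinase that phosphorylates eIF4E, rose from 146 to 540.0 CPM after CTR9 depletion (1.89) and from 146 to 917 CPM after CDC73 depletion (2.65) and measured −0.10 after MYC depletion. Bzw2, an eIF5 mimic, fell from 153 to 34.3 CPM after MYC depletion (−2.15). Cdc123, the assembly chaperone of eIF2, fell after CTR9 (−0.47) and CDC73 depletion (−1.34) and measured −0.11 after MYC depletion. Among 6 genes of eIF2 kinases and phosphatase subunits 2 rose in each comparison and 1, 2 and 2 fell after CTR9, CDC73 and MYC depletion. Ppp1r15a, the inducible subunit that returns eIF2 to its active form, rose in all 3 (1.05, 1.70 and 1.29), and Eif2ak3, the kinase of the endoplasmic reticulum, rose after MYC depletion (19.8 to 46.7 CPM, 1.24). The counts of the mTORC1 list were near the shares of all genes, and nothing about the pathway is read from them. Of its 9 genes 2, 2 and 4 fell and 4, 3 and 1 rose after CTR9, CDC73 and MYC depletion, among them Tsc2, an inhibitor of the pathway, which rose after CTR9 depletion (0.87), and Rps6kb1, the S6 kinase, which fell after MYC depletion (−0.94).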

How the data were processed

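Poly(A) RNA of 12 libraries, 3 in each of 4 groups, was sequenced from directional libraries. The authors aligned to mm10 with Bowtie 2 (2.3.4.1), brought every sample down to the mapped reads of the smallest and used featureCounts for counts per gene. The authors dropped genes under 5 reads and compared each depletion with shLuciferase by edgeR. The annotation and the strand setting are not given in the sources used here. As that aligner makes no spliced alignments, junction reads can be lost.

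The deposited tables hold the log2 fold change, the mean log2 CPM, a score (the likelihood ratio), the p-value and its Benjamini-Hochberg adjusted value for each gene, all as the authors computed them. They were used as deposited, since the tables give no value per library, whose depth is not analysed here. It was checked that each p-value is the chi-square upper tail (1 degree of freedom) of its likelihood ratio. The approximate standard error is the fold change over the root of the likelihood ratio, with a median of 0.14, 0.17 and 0.12 for CTR9, CDC73 and MYC over all genes and 0.10, 0.15 and 0.09 over initiation factors. Levels of the groups were computed from the mean log2 CPM and the fold change, and differences between depletions were tested with an approximate z test. The scripts were tested on simulated data.

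Names were matched in RefSeq tables of GRCm38.p6, exon lengths and shared 60-base stretches in the reference transcripts of the same mouse build. A gene was called at an adjusted p below 0.05. Every initiation factor was named, with levels and errors for the 3 called genes of largest change in each direction and comparison, for the 3 of largest called difference between depletions, and for Eif4e, Eif4a1, Eif4g1, Eif2s1, Eif5a and Eif6. From each other list up to 2 genes of smallest adjusted p were eligible. Further values of some genes, and the places of the numbered Eif1ad relatives and Eif4a3l1 in the grouping, were added after the values were seen. Genes, lists and groups were chosen with earlier results of these data known. The tools were Python 3.11.15 with pandas 2.3.3, numpy 2.4.6, matplotlib 3.10.9 and scipy 1.17.1.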

Additional observations from a re-analysis of the deposited data

How the results depend on the processing

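No paired analysis was possible because the tables give no value per library, and for the same reason leaving out each replicate in turn was not run. Of 84 recounts of called initiation factors under other settings, 66 stayed within 1.5 times the reported count. With a change of at least 0.5 on the log2 scale required, CTR9 depletion lowered 4 and raised 9, CDC73 depletion raised 11, MYC depletion lowered 23 and raised 0, 0 were lower after CTR9 than after MYC depletion and 1 lower after CTR9 than after CDC73 depletion. With the deposited likelihood ratio read against an F distribution with 1 and 4 degrees of freedom, CTR9 depletion lowered 5, CDC73 depletion lowered 4 and raised 7 and MYC depletion raised 2, while all genes called fell to 18.5%, 18.5% and 25.5% lower and 20.2%, 16.8% and 24.9% higher for CTR9, CDC73 and MYC, and MYC depletion still lowered 28 of 56. At an adjusted p below 0.01, MYC depletion raised 2, 1 lay below MYC depletion when CTR9 was depleted, and 1 lay below and 2 above CDC73 depletion. With a t distribution of 4 degrees of freedom, 0 lay below MYC depletion when CTR9 was depleted, and 0 lay below and 0 above CDC73 depletion. Centring on the median of all genes turned the sign of 2 values that were not called, Eif4g1 after CTR9 depletion to 0.00796 and Eif2b5 after MYC depletion to 0.000465. Leaving out genes under 80% unique stretches or without a known share, an alternative chosen after seeing the data, left 29 lower and 4 higher of 43 after MYC depletion. Single genes called by the chi-square but not the F reading were 36 of 168 values, among them Eif2s2 and Eif2s3x after each PAF1c depletion and Eif6, Eif2b2 and Eif4g1 after MYC depletion.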
